A study of Mus musculus with 8 samples.

Results

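Aminoacyl-tRNA synthetases are the enzymes that load each transfer RNA with its amino acid. The 36 genes described here are the listed synthetases of the deposited mouse table, 20 cytosolic (symbols ending in 1, with Farsa, Farsb and Tars3) and 16 mitochondrial (symbols ending in 2). They were chosen by gene name alone from 35072 genes, and all 36 were present under those names. All 36 also passed the filter on low counts that left 13299 genes for testing. RNA came from wildtype mouse CD8 T cells of spleen and lymph nodes. Naive cells were activated in culture with aCD3, aCD28 and IL-12 for 18 h, and then given PBS (control, n = 4) or 2 mM formate (n = 4) for 24 h. Formate is a one-carbon metabolite, and the series title links it to exercise, the microbiota and antitumour immunity. Activation and IL-12 are shared by both groups, and no unactivated cells were analysed here. Whether the 4 libraries of a group are separate mice or separate wells is not stated in the labels. The p-values therefore rest on the spread between these samples alone, which may be technical.

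Each synthetase recognises one amino acid and the transfer RNAs that belong to it, and spends ATP to join them. Mammalian cells keep a cytosolic set for the main ribosomes and a separate nuclear-encoded set that is imported into mitochondria, where it serves the few proteins encoded by mitochondrial DNA. Gars1 and Kars1 each encode both forms, so glycine and lysine have no separate mitochondrial gene, and mitochondria charge glutamine by an indirect route through Ears2 and an amidotransferase. Several cytosolic synthetases are held together in the multi-synthetase complex. Many cytosolic synthetase genes are known targets of ATF4, the transcription factor of the amino acid response, and activated T cells are known to increase protein synthesis.

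Library totals ranged from 29361986 to 41393093 estimated counts. Libraries are named here by group and by the code in their titles: controls 1, 7, 10 and 13 and formate libraries 2, 8, 11 and 14. Libraries of codes 1 to 8 and of codes 10 to 14 stood apart from each other irrespective of formate, so values are given for both library sets. Neighbouring codes (1 and 2, 7 and 8, 10 and 11, 13 and 14) each hold 1 control and 1 formate library, and a second test used these pairs as a block, although no label states that they belong together. Values are CPM (counts scaled for library depth with TMM factors), and changes are log2 formate minus control. Defining CD8 T cell genes (Cd8a, Cd8b1, Cd3e, Cd3d, Cd3g) summed to 1313 to 1503 CPM in controls and 1355 to 1391 with formate. B cell markers summed to 13.3 to 21.7 and 14.2 to 24.7 CPM, CD4 T cell markers to 7.97 to 15.3 and 8.74 to 15.7, and myeloid markers to 3.06 to 5.27 and 3.52 to 6.06. NK, erythroid and stromal markers did not exceed 0.0854, 0.390 and 1.48 CPM in any library, and 1 to 3 of the 3 NK genes were at 0. All of these lists overlapped between the groups; of their tested genes, the B cell marker Ms4a1 alone passed with the block (0.62, adjusted p = 0.0275), and its part in the results was not tested. In bulk RNA, fewer cells of a type and less RNA per cell cannot be told apart.

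Cytosolic members stood above mitochondrial ones in level, apart from Lars2, Tars3 and Iars1. Per transcript length (counts per kilobase of transcript, scaled to the same sum in each library, mean over the 8 libraries), the median over members was 136 for cytosolic and 19.2 for mitochondrial genes, against 13.8 for all tested genes. Gars1, the glycyl enzyme that serves both compartments, had the highest cytosolic level at 385 ± 39.5 (SD, n = 8), followed by the lysyl enzyme Kars1 at 345 ± 61.1, also of both compartments. These neighbours in the order did not differ beyond their spread. Cars1, the cysteinyl enzyme, stood at 84.2 ± 10.9, and 15 of the 16 mitochondrial genes lay below it, from Tars2 at 47.2 ± 7.73 to Wars2 at 5.08 ± 0.643. Lars2, the mitochondrial leucyl enzyme, was the exception at 556 ± 249, above every cytosolic member by its mean, with a range from 310 to 1061. Tars3, a threonyl enzyme related to Tars1, was low among the cytosolic genes at 7.26 ± 1.07. Iars1, the cytosolic isoleucyl enzyme, had a mean of 11.2 but ran from 0.463 to 23.2 between libraries.

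**Figure D1:**
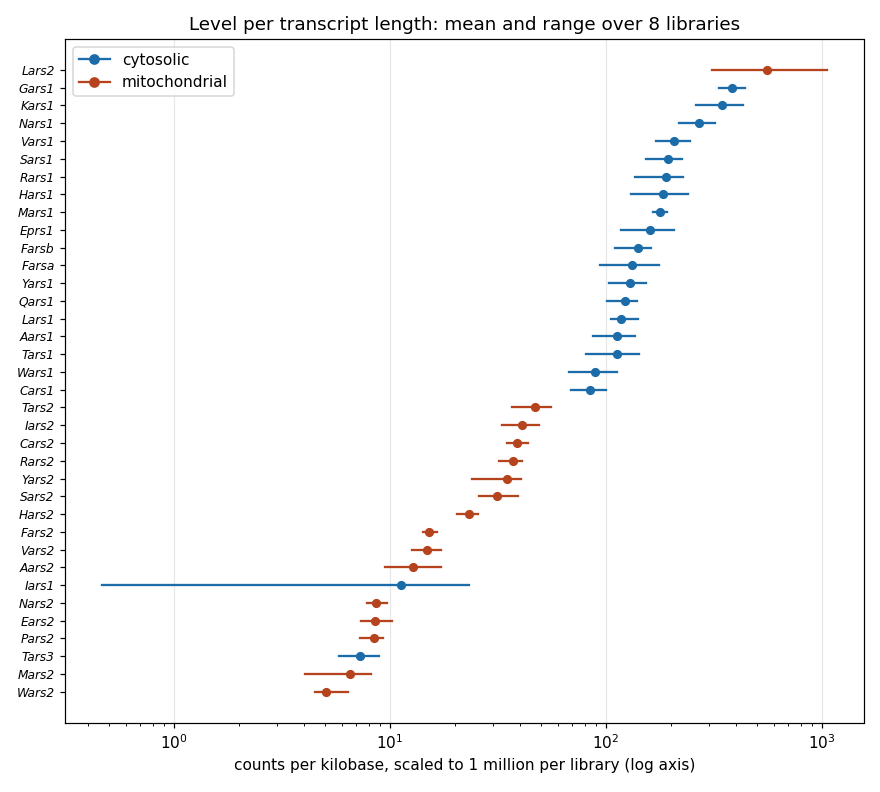
Mean level of each member per transcript length over all 8 libraries (counts per kilobase, scaled to the same sum in each library, log axis), with lines from the lowest to the highest library. Cytosolic members (blue) lie above mitochondrial ones (red) except for Lars2 at the top and for Iars1 and Tars3 among the low genes.

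With formate 7 of the 20 cytosolic synthetases fell and none rose, while among the 16 mitochondrial ones 1 fell and 2 rose, in the test with the code pairs as a block. The sizes were small: the called changes lay between -0.35 and 0.22 on the log2 scale. Across all 13299 genes that test called 7.52% lower and 5.35% higher (edgeR, adjusted p under 0.05). Without the block none of the 36 members passed, in edgeR or in DESeq2. That test called 0.00752% of all genes. At an unadjusted p under 0.05 without the block, 3 of the 36 (Tars3, Vars1 and Hars2) stood beside 4.77% of all genes. The median change without the block was -0.08 for cytosolic members, -0.09 for mitochondrial members and -0.01 for all tested genes. Members lower with formate in 4 of 4 pairs numbered 9 cytosolic and 7 mitochondrial, against 19.5% of all genes. Those higher in 4 of 4 pairs numbered 0 and 3, against 16% of all genes. With scaling by library size alone the block test called 3 members lower and 2 higher. The called members depend on each pair: 10 members passed with all pairs, 1 when codes 1 and 2 were left out, 5 for codes 7 and 8, 6 for codes 10 and 11, and 1 for codes 13 and 14. Of the 10, Vars1 alone passed in every one of these. The 6 include Gars1, which did not pass with all pairs (0.23 without codes 10 and 11, adjusted p = 0.0454).

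**Figure D2:**
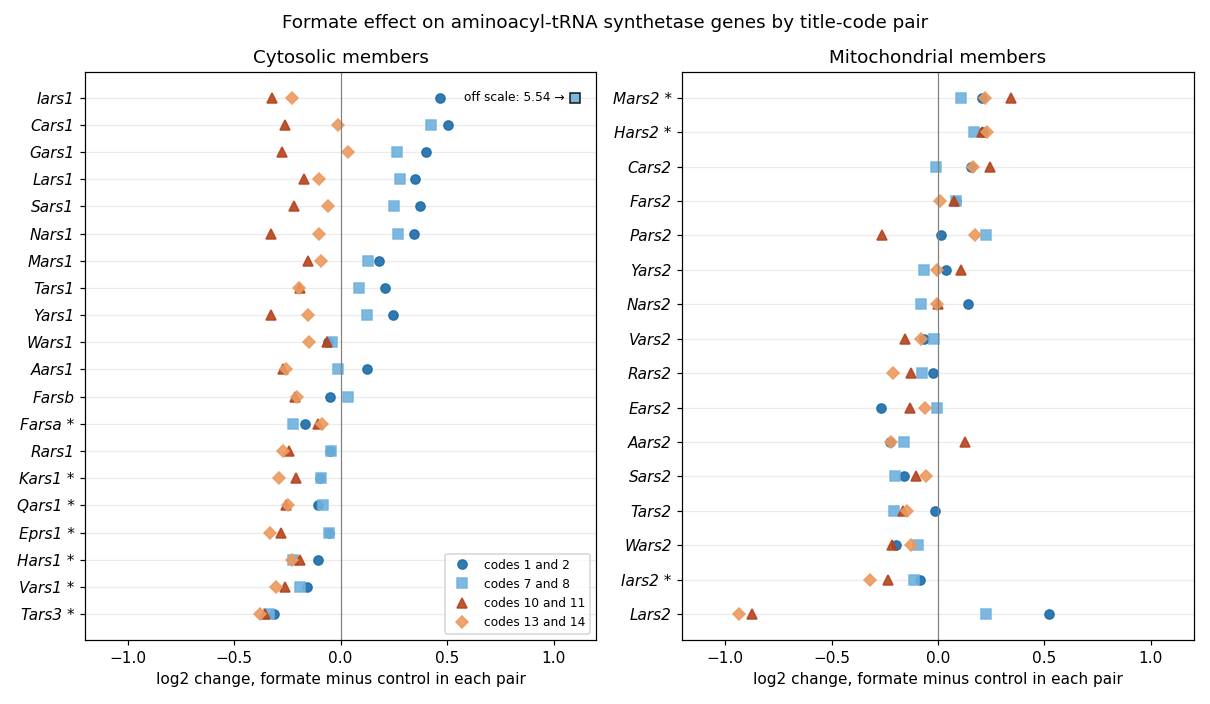
Log2 change (formate minus control) of each member in each of the 4 code pairs, cytosolic on the left and mitochondrial on the right, ordered by the fitted change; an asterisk marks an adjusted p under 0.05 with the pairs as a block. The lowest cytosolic members have all 4 pairs below 0, the upper ones have codes 1 to 8 (blue) above 0 and codes 10 to 14 (red, orange) mostly below, and 1 point of Iars1 is off scale at 5.54.

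Tars3 and Vars1 were the cytosolic members whose groups did not overlap, both lower with formate; 1.85% of all genes were separated in that direction and 2.44% in the other, where no member was. Tars3 (chr7:65644898-65692091, GRCm38, plus strand) read 13.9, 13.7, 13.3 and 13.1 CPM in controls 1, 7, 10 and 13 and 11.2, 10.9, 10.4 and 10.1 CPM in formate libraries 2, 8, 11 and 14. Every formate library lay below every control, and the 4 pair changes were alike, from -0.31 to -0.38. With the block it fell by 0.35 (SE 0.08, adjusted p = 0.0098, edgeR), and the adjusted p without the block was 0.998. Without codes 1 and 2 its adjusted p was 0.0635, and without 13 and 14 it was 0.0592. An annotated exon of Tm2d3 on the same strand overlaps 120 bases of Tars3 exons, so some reads of the 2 genes could be exchanged.

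Vars1, the valyl enzyme (chr17:35000987-35016322, plus strand), read 497, 478, 473 and 475 CPM in the controls and 445, 420, 395 and 385 CPM with formate. All formate libraries were again below all controls. It fell by 0.23 (SE 0.05, adjusted p = 0.0062 with the block, edgeR), and over the other block settings tried its adjusted p stayed between 1.16e-05 and 0.0459. Hars1, the histidyl enzyme, read 232, 234, 158 and 187 CPM in the controls and 215, 200, 138 and 160 CPM with formate. Its groups overlapped because the codes 10 to 14 were low in both, but each formate library was below its neighbour, and it fell by 0.19 (SE 0.04, adjusted p = 0.0128 with the block).

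Among the 7 members that belong to the multi-synthetase complex (Eprs1, Iars1, Kars1, Lars1, Mars1, Qars1 and Rars1), 3 fell with the block and none rose. Across all tested genes that test called 7.52% lower and 5.35% higher. The median change without the block was -0.14 for these 7 members and -0.01 for all tested genes. Eprs1, which charges both glutamate and proline in 1 protein, read 497, 437, 375 and 409 CPM in the controls and 478, 421, 309 and 325 CPM with formate. The drop was larger in codes 10 to 14 (-0.28 and -0.33 in the pairs) than in codes 1 to 8 (-0.06 and -0.05), and the fitted change was -0.18 (SE 0.05, adjusted p = 0.0380). Kars1 read 459, 441, 353 and 406 CPM in the controls and 429, 414, 305 and 333 CPM with formate, a fall of 0.17 (SE 0.05, adjusted p = 0.0275). Qars1, the glutaminyl enzyme, read 190, 175, 209 and 183 CPM in the controls and 177, 166, 175 and 154 CPM with formate, a fall of 0.17 (SE 0.05, adjusted p = 0.0246). In all of these the groups overlapped while each formate library lay below its neighbour. Rars1, the arginyl enzyme, was also lower in each pair, at -0.15, but its adjusted p was 0.0568. The 3 scaffold and accessory proteins of the complex, Aimp1, Aimp2 and Eef1e1, were measured as well, and none of them passed.

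Outside the complex, 4 of 13 cytosolic members fell with the block (Tars3, Vars1, Hars1 and Farsa), beside 7.52% of all tested genes. The median change of these 13 without the block was -0.08. Whether members inside and outside the complex differ was not tested. Farsa and Farsb encode the catalytic and the other subunit of the phenylalanyl enzyme. Farsa read 157, 155, 98.6 and 118 CPM in the controls and 139, 132, 91.5 and 111 CPM with formate, a fall of 0.15 (SE 0.04, adjusted p = 0.0382 with the block). Farsb was at -0.11 (adjusted p = 0.164), so the 2 subunits had similar estimates and only Farsa passed. Wars1, the tryptophanyl enzyme known to be induced by interferon, was lower in 4 of 4 pairs but by -0.08 (adjusted p = 0.256). The calls of Eprs1, Kars1, Qars1 and Farsa were lost without codes 1 and 2, with adjusted p of 0.0800, 0.0895, 0.0869 and 0.211. Without codes 13 and 14 they were 0.195, 0.133, 0.115 and 0.0703. Hars1 had 0.0627 and 0.0609 in those settings. Without codes 7 and 8 the adjusted p was 0.0512 for Eprs1, 0.0570 for Kars1, 0.0654 for Hars1 and 0.190 for Farsa. Without codes 10 and 11 it was 0.125 for Eprs1, 0.0602 for Kars1 and 0.0696 for Qars1.

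**Figure D3:**
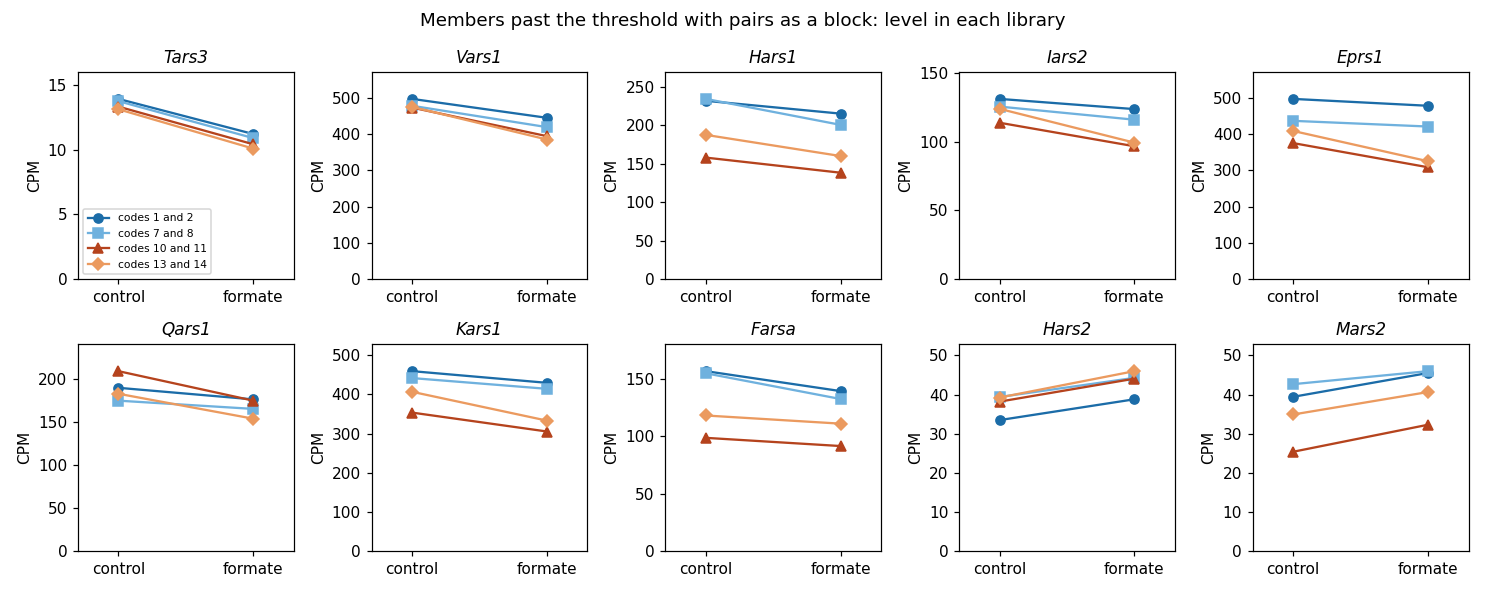
CPM in each library for the 10 members past the threshold with the code pairs as a block; lines join the control and formate library of neighbouring codes, and each axis starts at 0. The 8 lower members slope down in each pair, Hars2 and Mars2 slope up, and the groups are separate only for Tars3 and Vars1.

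In the mitochondrial class, Iars2 fell and Hars2 and Mars2 rose. Iars2, the mitochondrial isoleucyl enzyme (chr1:185284726-185329396, minus strand), read 131, 125, 114 and 124 CPM in the controls and 124, 116, 96.6 and 99.3 CPM with formate. Each formate library was below its neighbour, by more in codes 10 to 14, and the fitted change was -0.19 (SE 0.05, adjusted p = 0.0209 with the block). Exons of Rab3gap2 on the other strand cover 2034 bases of Iars2 exons. The strand setting of the counting is not given in the sources used here, so reads of the 2 genes cannot be told apart with certainty.

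Hars2, the mitochondrial histidyl enzyme, read 33.5, 39.4, 38.2 and 39.2 CPM in the controls and 38.8, 44.3, 44.1 and 46.0 CPM with formate. Only the formate library of code 2 lay within the control range, and the 4 pair changes ran from 0.17 to 0.23. The fitted rise was 0.20 (SE 0.05, adjusted p = 0.0216 with the block). Hars1 and Hars2 sit head to head on opposite strands of chromosome 18, their annotated exons overlap by 195 bases, and they moved in opposite directions. Hars2 was 14.4%, 16.8%, 24.2% and 20.9% of Hars1 (ratio of CPM) in controls 1, 7, 10 and 13 and 18.0%, 22.1%, 31.8% and 28.7% in their formate neighbours, higher in each pair with overlapping groups. Leaving out codes 1 and 2, 7 and 8, or 13 and 14 took the adjusted p of Hars2 to 0.0961, 0.0608 and 0.0777.

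Mars2, the mitochondrial methionyl enzyme (chr1:55237177-55248470, plus strand), read 39.4, 42.7, 25.4 and 34.9 CPM in the controls and 45.5, 46.0, 32.3 and 40.6 CPM with formate. Its groups overlapped, each formate library was above its neighbour, and the fitted rise was 0.22 (SE 0.06, adjusted p = 0.0229 with the block). Mars2 has a GC content of 38.8%, low among the members, and after removal of each library's trend on GC content the change was 0.03 (adjusted p = 0.810). The same correction took Farsa to an adjusted p of 0.0673 and brought Rars1 (0.0164) and the mitochondrial threonyl enzyme Tars2 (0.0400) past the threshold, both lower. Without codes 1 and 2 the adjusted p of Iars2 was 0.0638 and that of Mars2 0.103. Without codes 10 and 11 these were 0.0564 and 0.0728, and without 13 and 14 they were 0.119 and 0.0777.

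The other 13 mitochondrial members, Lars2 among them, did not pass. The phenylalanyl enzyme Fars2 was higher in 4 of 4 pairs at 0.06, and the cysteinyl enzyme Cars2 was at 0.14 (adjusted p = 0.127), with 32.4, 37.9, 37.2 and 39.0 CPM in the controls and 36.1, 37.6, 44.1 and 43.7 CPM with formate. Wars2, the tryptophanyl enzyme, read 13.7, 10.98, 12.8 and 11.8 CPM in the controls and 11.99, 10.3, 10.98 and 10.8 CPM with formate, lower in each pair with overlapping groups (-0.16, adjusted p = 0.193). Ears2, Rars2, Sars2, Tars2 and Vars2 were also lower in 4 of 4 pairs, with fitted changes from -0.13 to -0.08 and adjusted p from 0.0811 to 0.418. Aars2, Nars2, Pars2 and Yars2 had no common direction over the pairs, at -0.12, 0.02, 0.04 and 0.02. Without Lars2, the mitochondrial class summed to 505 to 605 CPM in controls and 493 to 583 CPM with formate. Transcripts of the mitochondrial DNA, whose messages these enzymes help to translate, took 0.438%, 0.414%, 0.429% and 0.566% of the counts of controls 1, 7, 10 and 13 and 0.618%, 0.560%, 0.906% and 0.725% in formate libraries 2, 8, 11 and 14. That share was higher in each pair, and its part in the values of the synthetases was not tested.

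A second pattern ran through the cytosolic class: several members were higher with formate in codes 1 to 8 and lower in codes 10 to 14. This held in all 4 pairs for 8 cytosolic members (Cars1, Iars1, Lars1, Mars1, Nars1, Sars1, Tars1 and Yars1) and for 1 mitochondrial member (Lars2), against 4.67% of all genes. Without Iars1, whose uneven levels are described below, it held for 7 of 19 cytosolic members. The reverse order held in 0 of 36 members, against 2.99% of all genes. The test of the difference between the library sets called Lars2 alone among the 36, and 0.0677% of all genes. At an unadjusted p under 0.05 it held 12 of 20 cytosolic members and 1 of 16 mitochondrial ones, against 5.06% of all genes. For the cytosolic class the median change was 0.02 in codes 1 to 8 and -0.21 in codes 10 to 14. For the mitochondrial class it was -0.03 and -0.07, and for all genes 0.01 and -0.02. Between the sets (codes 10 to 14 minus 1 to 8) the median over cytosolic members was -0.05 in the control libraries and -0.37 in the formate libraries. In the controls the members went both ways, from Farsa at -0.53 and Hars1 at -0.44 to Cars1 at 0.39 and Sars1 at 0.51. All tested genes had 0.02 and -0.01 there. The summed cytosolic level was 4983, 5082, 4904 and 5085 CPM in controls 1, 7, 10 and 13 and 5361, 5333, 4157 and 4520 CPM in formate libraries 2, 8, 11 and 14. In these CPM sums the controls lay close together, with the formate libraries above them in one set and below them in the other. Summed per transcript length, the controls were further apart, at 3446, 3270, 2929 and 3246. The formate libraries stood at 3643, 3453, 2609 and 2797 on that scale. No label says how the 2 sets differ.

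Lars2 (chr9:123366927-123462666, plus strand) showed this most. It read 588 and 829 CPM in controls 1 and 7 and 844 and 969 CPM in formate libraries 2 and 8, but 2305 and 1559 CPM in controls 10 and 13 and 1260 and 816 CPM in formate libraries 11 and 14. The controls of codes 10 to 14 were the highest of all libraries, and the formate libraries of both sets fell within a narrower range. The change was 0.37 in codes 1 to 8 and -0.90 in codes 10 to 14, a difference of -1.28 (SE 0.11, adjusted p = 0.00085, edgeR with the block). Without the block the difference was -1.25 with an adjusted p near 1. Over all 4 pairs the change was -0.27 (adjusted p = 0.717), and without the filter on low counts it was -0.28 with an adjusted p of 1.66e-06. The 4 pairs went both ways (0.52, 0.22, -0.87 and -0.93), so neither fit describes a change shared by the pairs. Why the 2 adjusted p differ was not tested. Lars1, the cytosolic leucyl enzyme, which is also known as a leucine sensor of the mTORC1 pathway, read 218, 228, 253 and 245 CPM in the controls and 277, 276, 225 and 229 CPM with formate. Its set difference of -0.45 had an adjusted p of 0.0851.

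Cars1, the cysteinyl enzyme, read 108, 125, 157 and 148 CPM in controls 1, 7, 10 and 13 and 153, 168, 131 and 147 CPM in their formate neighbours. Both pairs of codes 1 to 8 were clearly higher (0.50 and 0.42), and those of codes 10 to 14 were at -0.26 and -0.01. The set difference was -0.60 (SE 0.10, adjusted p = 0.0696), and scaling by library size alone brought it to 0.0440. Nars1, the asparaginyl enzyme, read 342, 374, 402 and 401 CPM in the controls and 434, 450, 320 and 374 CPM with formate (set difference -0.52, adjusted p = 0.0851). Sars1, the seryl enzyme, read 267, 321, 451 and 385 CPM and 345, 381, 388 and 370 CPM (set difference -0.45, adjusted p = 0.144). In Sars1 the 4 formate libraries lay close together, within the wider range of the controls.

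Gars1 read 387, 456, 523 and 480 CPM in the controls and 510, 548, 433 and 492 CPM with formate, higher in 3 of 4 pairs (set difference -0.45, adjusted p = 0.319). Yars1, the tyrosyl enzyme, read 186, 204, 202 and 202 CPM and 221, 222, 161 and 182 CPM (set difference -0.42, adjusted p = 0.199). Here 3 of the controls were nearly equal and the formate libraries lay on either side of them. Tars1, Mars1 and Aars1, the threonyl, methionyl and alanyl enzymes, had set differences of -0.34, -0.28 and -0.32, with adjusted p from 0.352 to 0.612. Each of these members therefore missed the threshold after adjustment over all genes. Farsa was the 1 cytosolic member with a difference above 0 (0.10).

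Iars1 could not be read as a response. It stood at 36.5, 1.08, 1.42 and 32.1 CPM in controls 1, 7, 10 and 13 and at 50.5, 52.8, 1.13 and 27.4 CPM in formate libraries 2, 8, 11 and 14. Libraries near 1 CPM and libraries near 30 to 50 CPM occurred in both groups and both sets, and the control 7 and formate 8 pair differed by 5.54 on the log2 scale. The fitted change with the block was 1.07 with an SE of 1.17 (adjusted p = 0.641), and without the filter on low counts its adjusted p was 1.01e-31, with a change of the same direction. The cause of the low values was not tested.

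**Figure D4:**
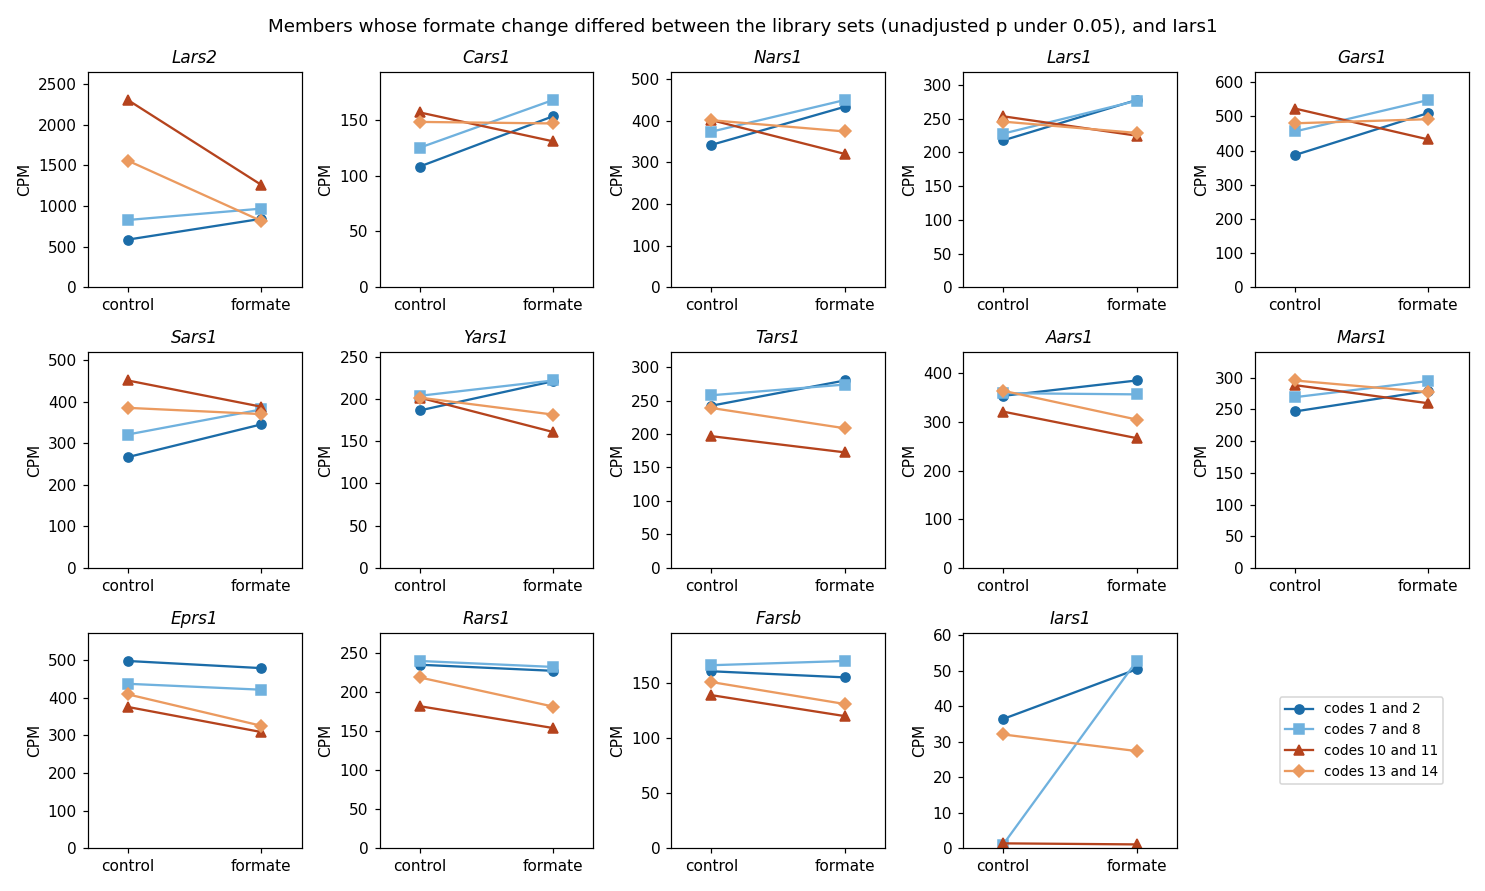
CPM in each library for Lars2, the 12 cytosolic members with an unadjusted p under 0.05 for the difference between library sets, and Iars1; lines join neighbouring codes and each axis starts at 0. The blue lines (codes 1 to 8) rise and the red and orange lines (codes 10 to 14) fall or stay level for Cars1, Nars1, Lars1 and Sars1, and Lars2 has its highest controls in codes 10 to 14.

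Cytosolic and mitochondrial enzymes of the same amino acid could be compared within each library for 13 pairs of genes, as the ratio of their CPM. Only the valyl pair, 1 of the 13, had ratios that did not overlap between the groups: Vars2 was 7.50%, 7.41%, 7.04% and 7.30% of Vars1 in the controls and 8.0%, 8.33%, 7.59% and 8.51% with formate. Each formate value was above each control value, with Vars1 at -0.23 and Vars2 at -0.08 with the block. Vars1 by itself was already separate between the groups. Of all tested genes, 1.85% were separate with formate lower and 2.44% with formate higher. No such share was taken for ratios of other genes. In the seryl pair, Sars2 read 35.7, 35.9, 27.6 and 28.7 CPM in the controls and 31.98, 31.2, 25.6 and 27.6 CPM with formate, and its ratio to Sars1 ran from 6.11% to 13.4% in controls and from 6.60% to 9.26% with formate. In the tyrosyl pair, Yars2 read 54.3, 59.6, 37.7 and 50.2 CPM in the controls and 55.8, 57.0, 40.5 and 50.1 CPM with formate, with no common direction. The ratio of Yars2 to Yars1 was lower with formate in both pairs of codes 1 to 8 (29.1% to 25.2% and 29.3% to 25.7%) and higher in both pairs of codes 10 to 14 (18.7% to 25.2% and 24.9% to 27.6%).

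Promoters were examined because known ATF4 targets are among the cytosolic members with an unadjusted p under 0.05 for the set difference. ATF4 pairs with C/EBP proteins on a composite element whose core reads TGATGNAA, or TTNCATCA on the other strand. RefSeq windows (GRCm38.p6, 250 bases before to 50 after a gene's start) were found for 13 cytosolic and 14 mitochondrial members, and both strands were searched. The core occurred in 5 of the 13 (Aars1, Gars1, Iars1, Tars1 and Yars1) and in 0 of the 14, while it occurred in 3.97% of all 32851 windows of that length and in 4.51% of genes. The members without an entry are Cars1, Hars1, Lars1, Nars1, Rars1, Vars1, Wars1, Hars2 and Pars2. A match is a description of the letters in this window, not evidence of binding. For Gars1 and Tars1 the 120 bases before the start are shown, on the gene's strand with the core in capitals, because the match lies close to the start (30 to 23 bases before it in Gars1 and 15 to 8 in Tars1).
Gars1, chr6:55037881-55038000, plus strand: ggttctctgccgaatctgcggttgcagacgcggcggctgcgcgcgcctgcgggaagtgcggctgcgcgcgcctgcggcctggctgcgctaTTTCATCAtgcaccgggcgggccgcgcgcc
Tars1, chr15:11399659-11399778, minus strand: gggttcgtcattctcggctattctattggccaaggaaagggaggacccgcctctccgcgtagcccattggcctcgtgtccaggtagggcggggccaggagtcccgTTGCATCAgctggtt

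Aars1, Iars1 and Yars1 each held a core just after the start, at 10 to 17, 8 to 15 and 4 to 11 bases. For these only the 30 bases around that match are shown, since annotated exons cover them. Of the cores printed, those of Iars1 and Tars1 have the same letters, and Yars1 has them on the other strand.
Aars1, chr8:111033840-111033869, plus strand: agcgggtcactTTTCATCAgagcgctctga
Iars1, chr13:49682126-49682155, plus strand: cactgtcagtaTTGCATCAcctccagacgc
Yars1, chr4:129189895-129189924, plus strand: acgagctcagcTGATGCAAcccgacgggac

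The set differences of the 5 members with a match were -0.45 (Gars1), -0.34 (Tars1), -0.32 (Aars1), -2.36 (Iars1, SE 2.34) and -0.42 (Yars1). Among cytosolic members with a window and no match they ranged from -0.45 (Sars1) to 0.10 (Farsa). Whether the letters bear on the difference was not tested. In Tars3, which fell in every pair, the window held no core.

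Other genes of tRNA charging and of translation were read beside the synthetases, from lists of their own. Among other charging genes, Aarsd1, an editing factor that clears mischarged alanyl-tRNA, fell with the block (-0.23, SE 0.05, adjusted p = 0.0077), and none rose. All 4 mitochondrial elongation factors fell: Tufm by 0.36 (adjusted p = 0.0008), Gfm1 by 0.23 (0.0050), Gfm2 by 0.18 (0.0345) and Tsfm by 0.16 (0.0494). Tufm, which delivers charged tRNA to the mitochondrial ribosome, read 199, 193, 141 and 161 CPM in the controls and 159, 150, 111 and 123 CPM with formate, lower in each pair. Of 5 cytosolic elongation factors, 1 fell: Eef2, the translocase, by 0.26 (adjusted p = 0.0050). None of these genes passed without the block. Among all tested genes the test with the block called 7.52% lower.

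Of 19 genes of the amino acid response, 2 rose with the block and none fell, against 5.35% higher and 7.52% lower among all genes. Atf3, a transcription factor of that response, rose by 0.42 (adjusted p = 0.0020), and Stc2, a secreted glycoprotein, by 1.29 (adjusted p = 0.0008). Atf4 itself read 368, 458, 539 and 545 CPM in the controls and 518, 533, 460 and 554 CPM with formate. It was higher in both pairs of codes 1 to 8 (0.49 and 0.22) and at -0.23 and 0.02 in the others, with a fitted change of 0.13 (adjusted p = 0.608). The set difference had a median of -0.49 over this list, and 14 of 19 genes had an unadjusted p under 0.05 (edgeR). For all tested genes the median was -0.03, and 5.06% had such a p. Slc7a11, the cystine transporter, passed after adjustment (-2.68, adjusted p = 0.0013). The list's median change was 0.54 in codes 1 to 8 and -0.05 in codes 10 to 14, beside 0.02 and -0.21 for the cytosolic synthetases. Both lists thus had their higher changes in the same library set. Their levels did not run alike. Between the sets (codes 10 to 14 minus 1 to 8) the amino acid list had a median of 0.58 in the control libraries and -0.06 in the formate libraries. The cytosolic synthetases had -0.05 and -0.37 there. Whether the 2 lists are linked was not tested.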

How the data were processed

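The authors deposited 1 table of estimated counts (expected counts) per gene for the 8 libraries, with 35072 genes, without normalisation or pooling. The RNA was polyA-selected and the library kit keeps strand, per the labels' protocols. Per the submitters' processing notes the tools were Trimmomatic, kallisto and MultiQC, on mm10 and GRCm38, with no version given. The release of the transcriptome is not given in the sources used here, nor is a strand setting or filter, so overlapping genes are uncertain. Genes without a symbol (8884) were kept under their identifiers and held 1.22% to 1.65% of counts. Counts were rounded to whole numbers.

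The test was edgeR 4.0.16 under R 4.3.3 (TMM scaling, filterByExpr, robust quasi-likelihood test, Benjamini-Hochberg over all 13299 tested genes, adjusted p under 0.05), and the code was tested on simulated data. The main comparison has no block. Pairs come from the title codes: deviations from the group means correlated by 0.653, 0.369, 0.656 and 0.370 for neighbours, and by up to 0.373 for other libraries of the same set, so the bound of 0.1 does not by itself tell pairs from sets. No 2 libraries of a group were alike within sampling noise (smallest chi-square per degree of freedom 22.2). At these depths 3 counts equal at most 0.102 CPM, which covers counting error only. Alternatives were DESeq2 1.42.0, other scalings, no filter, GC offsets and left-out libraries or pairs.

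Coordinates, length and GC content are from GENCODE M21 (GRCm38), promoters from RefSeq. Per-library values are given for members called in any test, for the 3 largest increases and decreases of each class without the block, and for same-amino-acid pairs that differ in direction; of the other lists, called genes and Atf4 are named. Further members were described after their values were seen. The members and lists were chosen with earlier results of these data known. Some items are not reported here.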

Additional observations from a re-analysis of the deposited data

Results flagged for a closer look

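Lars2 differed between the library sets in its response to formate: the change was 0.37 on the log2 scale in codes 1 to 8 and -0.90 in codes 10 to 14, a difference of -1.28 by the test of that difference. It was the 1 member of 36 past the threshold there.

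In Yars1, control 1 lay apart from the other 3 controls, at 186 CPM against 202 to 204 CPM. This was 1 of 72 groups of 4 libraries examined for such a gap, and chance gives about 1 in 20.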

How the results depend on the processing

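Without a block, 0 of 36 members passed in every setting tried except the replicate block, where 10 did, and 10 with GC offsets as well. With the pairs as a replicate block, 10 members passed, against 5 with scaling by library size only, 1 when codes 1 and 2 were left out, 5 for codes 7 and 8, 6 for codes 10 and 11 (with Gars1, not among the 10), and 1 for codes 13 and 14; the cause was not tested, beyond the fewer libraries in the last 4. DESeq2 and RLE scaling called 11, upper quartile scaling 8 and no filter 14, which then included Iars1, Lars2, Cars1 and Rars1; the cause was not tested. The set difference called 1 member, 2 with library size only and 0 without the block. The median change of mitochondrial members (-0.09) was -0.03 in codes 1 to 8, both alone and in the block fit (-0.0333 and -0.0283), and ran from -0.11 (-0.113) to -0.04 (-0.0405) when each library was left out. That of cytosolic members (-0.08) ran from -0.15 (-0.147) to 0.00185 when libraries were left out; without formate 11 it was not below 0. No called member reversed sign. Leaving out Iars1 or Lars2, and the medians by set from the block fit, were added after seeing the data. Depth was not tested as a limit for single members.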
